A study of Mus musculus with 1778 samples.

Results

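Described across the whole series are 7 genes: the transcription factor genes Pou5f1 and Nanog, the kinase genes Pim1, Pim2 and Pim3, and the cytokine inhibitor genes Socs2 and Socs3. They are 7 of the 24920 gene rows of the count table, taken by name. They were chosen by their levels at the 4 stages and by a link of Pim2 to Pou5f1 between cells, so those values are a description and carry no test. The cells came from C57BL/6 mouse embryos carrying Wnt1::Cre and Rosa26TdTomato, in which Cre driven by Wnt1 control sequences switches on a red fluorescent protein for good, first in the dorsal neural tube and then in the neural crest that leaves it. Embryos were taken at 4, 6, 8 and 10 somites, untreated, and all 4 groups carry both alleles. Red cells, labelled by the submitters as cranial neural crest, were sorted 1 to a well and read by Smart-Seq2, a full-length method without molecular identifiers. No embryo, litter or pool is named, so each stage is 1 pool of cells, the spread between embryos is unknown and no test between stages was possible.

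Pou5f1 (Oct4) and Nanog are transcription factors that hold embryonic stem cells and the early epiblast in the pluripotent state, and both are normally shut off as the embryo passes through gastrulation and neurulation. Pou5f1 binds DNA at an octamer, often beside a site for Sox2. The Pim genes encode serine/threonine kinases that have no regulatory subunit, so their activity follows the amount of protein, and they promote survival and growth of cells. Pim and Socs genes are textbook targets of the JAK-STAT pathway, in which cytokine receptors activate JAK kinases and these activate STAT transcription factors. The SOCS proteins in turn block cytokine receptors and JAK kinases.

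The promoter sequences are shown first for Pim2, Nanog and Pou5f1, whose levels were lower together at the later stages. They are from RefSeq on GRCm38.p6, on the plus strand, written 5′ to 3′ and ended just before the first base of the gene model. Capitals mark the motif ATGCAAA, with its last base where the full octamer ATGCAAAT is present, and the Sox core ACAATG, each on either strand.
Pim2 (chrX:7878056-7878261): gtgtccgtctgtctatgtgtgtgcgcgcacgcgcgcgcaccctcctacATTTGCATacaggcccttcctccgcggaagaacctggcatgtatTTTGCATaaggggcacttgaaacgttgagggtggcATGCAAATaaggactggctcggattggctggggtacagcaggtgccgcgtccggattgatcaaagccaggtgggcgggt
Nanog (chr6:122707239-122707488): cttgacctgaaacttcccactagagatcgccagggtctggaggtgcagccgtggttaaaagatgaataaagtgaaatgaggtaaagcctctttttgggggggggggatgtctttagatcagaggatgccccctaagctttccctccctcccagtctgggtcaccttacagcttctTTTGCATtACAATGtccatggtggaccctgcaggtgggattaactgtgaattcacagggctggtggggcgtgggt
Pou5f1 (chr17:35505782-35506017): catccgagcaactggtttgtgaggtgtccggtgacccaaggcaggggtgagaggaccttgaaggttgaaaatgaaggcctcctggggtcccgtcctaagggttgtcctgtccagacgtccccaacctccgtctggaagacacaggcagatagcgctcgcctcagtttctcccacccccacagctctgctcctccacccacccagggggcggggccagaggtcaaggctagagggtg

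The Pim2 window held 2 full octamers on opposite strands and 1 further match to ATGCAAA between them. Over all 32851 promoter windows of 300 bases in the RefSeq table, 1.74% held a full octamer and 0.107% held 2 or more of them. ATGCAAA was found in 4.63% of the windows and at 3 or more positions in 9 of them (0.0274%). The Nanog window held 1 ATGCAAA match, on the minus strand, with ACAATG 1 base downstream of it, and ACAATG alone was present in 12.6% of all windows. The printed Pou5f1 window held neither motif, nor did the windows of Pim1, Pim3 and Socs3, while a second Pou5f1 window, inside the gene, held 1 ACAATG. The palindrome TTCNNNGAA, a general STAT motif present in 8.30% of windows, was found in the window of Socs3 and in no window of the other 5 genes matched. The table matched 6 of the 7 genes, with 9 windows, and Socs2 was the gene without one. A match of letters is a description and not a measured binding site.

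Of 1778 cells, 1728 had at least 50000 reads on genes and 1500 detected genes and were kept, 12.7% of them of 4 somites, 48.3% of 6, 13.1% of 8 and 25.8% of 10. They held 92185 to 2098451 reads each. The pre-ribosomal transcript Rn45s took 54.4% of the reads, from 44.4% at 8 somites to 59.2% at 6, and was left out of the library size here. Levels are given as RPM, the reads on a gene for every 1000000 reads on genes other than Rn45s. On that scale the median of the 6135 genes that reached 20 RPM in all 4 stages moved by 0.02 or less on the log2 scale in every comparison of stages, so members' ratios are read directly. The titles carry 8 long numbers that the labels do not explain. They are read here as plate numbers and called plates A to H in ascending order, and with the stage they gave 12 sets of at least 10 kept cells, 2 at 4 somites, 5 at 6, 2 at 8 and 3 at 10. The sets differed in more than stage. Sox10, a defining marker of migrating neural crest, was at 6.25 and 31.8 RPM in the sets of 4 somites and at 109.6 to 321.5 RPM in those of 8 and 10, so the labelled cell type was little marked at 4 somites. The 8 and 10 somite sets had the Y-linked Ddx3y at 17.6 to 48.9 RPM and Xist at no more than 0.298 RPM, as male cells do. Of the sets of 4 and 6 somites 3 had Xist alone above 1 RPM, and the others held both transcripts. On 2 plate numbers the levels of Xist and Ddx3y changed between blocks of well columns of the 6 somite cells. Splitting those gave 14 blocks, a split made after Xist and Ddx3y were seen.

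Pou5f1 and Nanog were both transcribed at 4 somites and were close to the limit of counting at 8 and 10. Pou5f1 (ENSMUSG00000024406.16, GRCm38 chr17:35506018-35510772, plus strand) stood at 26.2 RPM at 4 somites (95% counting interval 25.3 to 27.2), 10.4 at 6 (10.1 to 10.8), 0.492 at 8 (0.374 to 0.636) and 0.333 at 10 (0.253 to 0.430). All intervals and floors cover counting error alone, because copies of 1 molecule made by PCR are counted as separate reads. Both sets of 4 somites carried Pou5f1, at 35.9 RPM on plate F and 8.49 on plate D. Those of 6 somites were at 19.3 (plate F), 10.5 (plate A), 8.28 (plate E), 6.43 (plate B) and 3.75 RPM (plate H). The sets of 8 somites were at 1.46 (plate D) and 0.426 RPM (plate B), and those of 10 at 0.795 (plate B), 0.248 (plate C) and 0 RPM (plate G, 12 cells, where 3 reads would be 0.406 RPM). The lowest set of 4 and 6 somites therefore lay above the highest of 8 and 10, while 1 set of 4 somites lay below 2 sets of 6. Pou5f1 overlaps an antisense gene model, Gm19553, whose reads cannot be told apart here.

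Nanog (ENSMUSG00000012396.12, chr6:122707489-122714633, plus strand), which acts with Pou5f1 and Sox2 in pluripotent cells, was the lower of the pair at every stage. It stood at 12.5 RPM at 4 somites (11.8 to 13.2), 4.02 at 6 (3.802 to 4.258), 0.127 at 8 (0.0713 to 0.210) and 0.138 at 10 (0.0882 to 0.205), the last 2 from 15 and 24 reads. Its sets of 4 somites were at 15.4 and 7.11 RPM and those of 6 somites ran from 0.252 to 9.46 RPM. The set of 15 cells of 8 somites on plate D was at 1.32 RPM, above 2 of the 5 sets of 6 somites, so the early and late sets overlapped for Nanog. Nanog has 2 pseudogenes in the annotation, Nanog-ps1 and Nanog-ps2, to which reads may be shared.

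Pim2 had the highest level of the 7 genes at 4 somites, also per length, and was lower at each later stage. Pim2 (ENSMUSG00000031155.16, chrX:7878262-7883432, plus strand) stood at 393.5 RPM at 4 somites (389.7 to 397.2), 155.6 at 6 (154.2 to 156.995), 15.5 at 8 (14.8 to 16.2) and 7.07 at 10 (6.68 to 7.48). Its sets of 4 somites were at 509.2 (plate F) and 180.6 RPM (plate D). Those of 6 somites were at 343.7 (plate F), 116.3 (plate E), 57.95 (plate B), 40.1 (plate A) and 33.1 RPM (plate H), a range of 10.4-fold within 1 stage. The sets of 8 somites were at 27.4 (plate D) and 14.7 RPM (plate B), and those of 10 at 10.9 (plate B), 6.40 (plate C) and 3.65 RPM (plate G). No set of 8 or 10 somites reached the lowest set of 6.

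The other 2 Pim kinases did not share this pattern. Pim3 (ENSMUSG00000035828.11, chr15:88862186-88865726, plus strand) was level, at 77.2, 81.6, 86.9 and 85.5 RPM from 4 to 10 somites. Its 12 sets lay between 63.2 and 119.2 RPM and those of 4 and 6 somites overlapped those of 8 and 10. Pim1 (ENSMUSG00000024014.8, chr17:29490753-29496112, plus strand, overlapping the antisense model Gm26885), the first described Pim kinase, was at 1.24, 1.04, 2.28 and 1.82 RPM. Its sets ran from 0.0841 to 4.599 RPM with no order by stage. Divided by the length of the merged exons, the levels at 4 somites were 140.8 RPM per kilobase for Pim2, 31.8 for Pim3 and 0.370 for Pim1. At 10 somites they were 2.53, 35.2 and 0.542, so Pim3 took the place of Pim2 as the leading Pim transcript. On the same scale at 4 somites, Socs2 was at 13.6, Pou5f1 at 11.7, Nanog at 5.57 and Socs3 at 2.002. Which Pim gene led at 6 somites differed between plates. In RPM Pim3 was above Pim2 on plates A (119.2 and 40.1), B (72.4 and 57.95) and H (80.6 and 33.1), and below it on plates E and F.

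Socs2 and Socs3 went in opposite directions. Socs2 (ENSMUSG00000020027.18, chr10:95385362-95417180, minus strand), best known as a brake on growth hormone signalling, went from 129.7 RPM at 4 somites (127.6 to 131.9) to 93.01 at 6, 39.4 at 8 and 26.4 at 10 (25.6 to 27.2). Its sets were at 144.04 and 103.3 RPM at 4 somites, 62.6 to 118.5 at 6, 60.3 and 37.96 at 8, and 25.5 to 32.3 at 10. The highest late set, 60.3 RPM, was close to the lowest early one, 62.6 RPM, without overlap. Socs3 (ENSMUSG00000053113.3, chr11:117966079-117970047, minus strand), the main feedback inhibitor of gp130 receptors, was at 5.79, 3.28, 6.56 and 9.64 RPM. Its sets of 4 and 6 somites ran from 2.19 to 6.18 RPM and those of 8 and 10 from 6.36 to 13.95 RPM, again without overlap but with a gap smaller than the spread within either side.

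**Figure D1:**
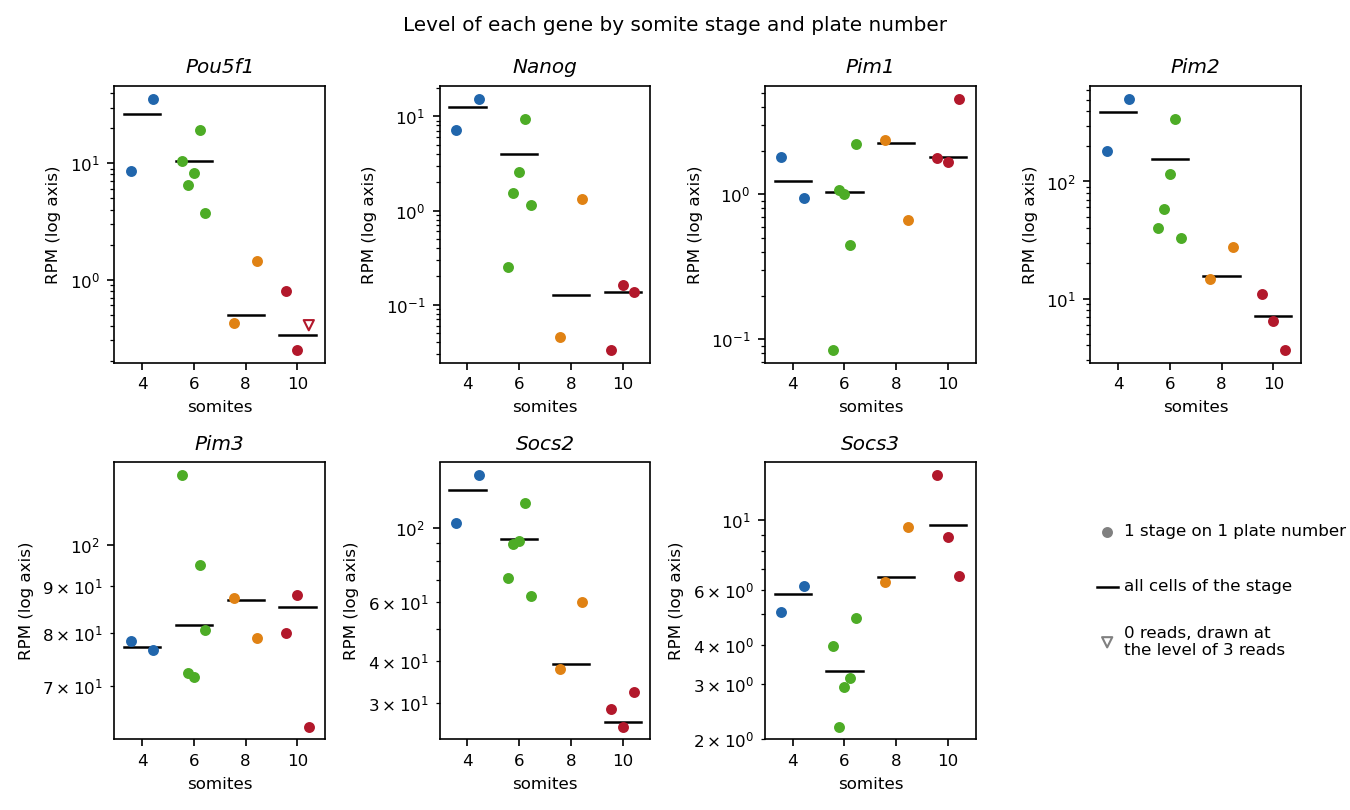
RPM of each gene (log axes with a range of their own) against somite stage, with 1 point for each stage on 1 plate number and a bar for all cells of the stage. Pou5f1, Pim2 and Socs2 have no late set as high as an early one, Socs3 has no late set as low as an early one, and Pim3 stays between 63.2 and 119.2 RPM.

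Between 10 and 4 somites the log2 ratio was −6.29 for Pou5f1 (−6.70 to −5.93), −6.47 for Nanog (−7.15 to −5.92), −5.80 for Pim2 (−5.88 to −5.72) and −2.30 for Socs2 (−2.35 to −2.25). Socs3 was at 0.74 (0.60 to 0.87), Pim1 at 0.55 and Pim3 at 0.15. So 4 of the 6 members with at least 5 RPM at either stage were at least 2-fold lower and 0 were 2-fold higher, where 6.65% of 10205 genes were lower and 6.17% higher. The share is given for scale only, since this contrast chose the genes. From 4 to 6 somites 3 of 6 measured members, Pou5f1 at −1.33, Nanog at −1.63 and Pim2 at −1.34, were 2-fold lower, against 0.733% of genes (2.12% higher). Within plate F, which both stages share, none of them was 2-fold lower, at −0.90, −0.70 and −0.57, and without plate F Pou5f1 was at −0.27. From 6 to 8 somites 3 of 5 were 2-fold lower, Pou5f1 at −4.39, Pim2 at −3.33 and Socs2 at −1.24, against 3.56% (2.84% higher). Without plate B Socs2 was at −0.63. From 8 to 10 somites Pim2 alone of 4 measured was 2-fold lower, at −1.13, against 0.774% (0.593% higher), but it was at −0.42 within plate B and −0.70 without plate C. In the pooled ratios the step from 6 to 8 somites was thus the largest of the 3 for Pou5f1, Nanog and Pim2. Nanog was at −4.94 there, but below 5 RPM at both stages. With 1 plate left out that step came down to −1.63 for Nanog, −2.84 for Pou5f1 and −2.43 for Pim2 at the smallest. Of all 10151 genes at 5 RPM in the early or the late cells, 2.12% had every late set below every early one and 1.38% every late set above, as 3 members (Pou5f1, Pim2 and Socs2) and 1 member (Socs3) had.

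The sizes of these ratios depended on which plate numbers were compared. Along the plate numbers shared by stages, plate F for 4 and 6 somites and plate B for 6, 8 and 10, the ratio of 10 against 4 somites was −3.89 for Pou5f1, −5.67 for Nanog, −2.97 for Pim2, −1.92 for Socs2 and 1.68 for Socs3. By way of 8 somites on plate D, with 15 cells, it was −1.57, −2.36, −3.14, −1.17 and 2.05. For Nanog both routes rest on 1 read at 10 somites on plate B, below the floor of 3 reads, against 47 reads at 6 somites and 5 at 8. Without plate F, the plate number with most Pim2 and Pou5f1, the pooled ratio was −4.66 for Pou5f1 and −4.67 for Pim2. The directions of these 5 genes were the same along every route, while Pim1 changed sign, at −0.35 and −1.73.

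Within 1 plate number the step from 4 to 6 somites was uneven. On plate F Pim2 was at 509.2 RPM at 4 somites and 343.7 at 6, a log2 ratio of −0.57. The 94 cells of 6 somites in well columns 1 to 6, which had Ddx3y at 67.7 RPM and Xist at 0.173, held Pim2 at 191.002 RPM, Pou5f1 at 12.8 and Nanog at 6.75. The 86 cells in columns 7 to 12 had both transcripts, Xist at 63.9 RPM and Ddx3y at 51.2. They held Pim2 at 533.7, Pou5f1 at 27.3 and Nanog at 12.8, and their Sox10 was at 0.915 RPM against 32.5 in columns 1 to 6. The second block was thus close to the 4 somite cells of that plate number, with log2 ratios of 0.07 for Pim2, −0.39 for Pou5f1 and −0.27 for Nanog, whereas the first was lower, at −1.41, −1.48 and −1.19. On plate E the 6 somite cells of columns 1 to 12 had Pim2 at 58.6 RPM and Pou5f1 at 4.74, and those of columns 13 to 24 had 168.98 and 11.5 RPM. Fos, a gene of the early stress response, was at 9.92 and 387.1 RPM in these blocks, and at 9.95 and 405.2 RPM in the lower and higher set of 4 somites. The part of stress genes in the levels of Pim2 and Pou5f1 was not tested. Pim2 is X-linked, and all late sets were male. The 2 male blocks of 6 somites had Pim2 at 168.98 and 191.002 RPM, against 3.65 to 27.4 RPM in the male sets of 8 and 10 somites. No late set shares the plates of those blocks, and the part of sex was not tested.

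**Figure D2:**
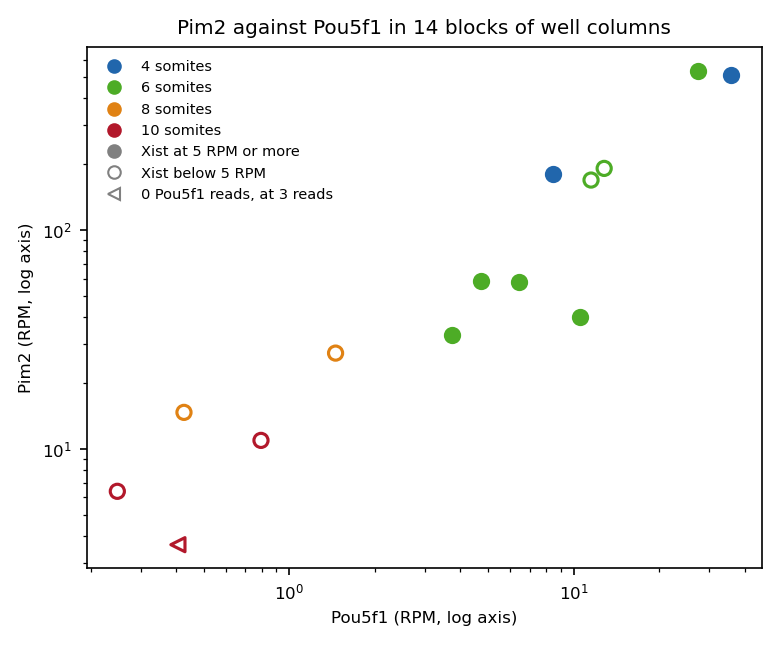
Pim2 against Pou5f1 in RPM (log axes) in 14 blocks of well columns, coloured by stage, filled where Xist was at 5 RPM or more. The 6 somite blocks spread from the level of the 4 somite block on plate F, at 509.2 RPM of Pim2, to near the 8 somite block at 27.4 RPM, with the 4 somite block on plate D among them at 180.6 RPM, and the 2 open green points are the male blocks of 6 somites.

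Across the 12 sets Pou5f1, Nanog, Pim2 and Socs2 varied together. On log2(RPM + 1) Pearson's r with Pou5f1 was 0.95 for Pim2, 0.94 for Socs2 and 0.84 for Nanog, and it was 0.85, 0.86 and 0.74 over the 7 sets of 4 and 6 somites. It was 0.25 for Pim3, −0.66 for Pim1 and −0.60 for Socs3, which was at 0.33 over the 7 early sets. Pim2 and Socs2 had r = 0.96 over 12 sets and 0.97 over the 7 early ones. Sets share stages, plate numbers and depth, so these values describe the sets and are no test.

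The share of cells with reads was lower at later stages too. After each cell was thinned at random to 100000 reads without Rn45s, which left out 9 shallower cells, Pou5f1 had a read in 52.3% of cells at 4 somites (exact Clopper-Pearson 95% interval 45.5 to 59.03), 25.4% at 6 (22.4 to 28.5), 9 cells at 8 (3.96%, 1.83 to 7.39) and 11 of 440 at 10 (2.50%, 1.25 to 4.43). Nanog had one in 66, 70, 2 and 4 of these cells, 30% at 4 somites and 8.41% at 6. Pim2 was read in 88.6%, 60.5%, 34.8% and 22.3% of cells, and Socs2 in 83.2%, 75.2%, 58.1% and 47.7%. Pim3 was read in 70.8% to 88.99% of cells at every stage, Socs3 in 13.2%, 8.77%, 25.6% and 28.2%, and Pim1 in at most 11.9%. Pim2 was also unevenly spread among cells. At 4 somites the median cell held 253.4 RPM and the 22 highest cells held 28.99% of the summed cell RPM. At 6 somites the median was 23.03 RPM and the highest 84 cells held 58.1%, and at 8 and 10 somites the median cell held 0 reads. Pou5f1 and Nanog were seen together in 38 cells of 4 somites on plate F and in 5 of 92 on plate D, all with a Pim2 read, in sets where most cells had one. The shares of the 2 genes taken alone would give 33.3 and 5.17 such cells. At 6 somites there were 7 in columns 1 to 6 of plate F (2.87 from the shares) and 10 in columns 7 to 12 (10.5), all with a Pim2 read. Of such cells 5 of 6 in columns 13 to 24 of plate E and 1 of 2 on plate H had a Pim2 read.

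Late cells with Pou5f1 reads were few. Without thinning, 15 cells at 8 somites and 25 at 10 had any Pou5f1 read, 9 and 10 had a Nanog read, and 3 and 0 had both. The 3 cells with both were all among the 15 cells of 8 somites on plate D. The highest Pou5f1 level in a late cell was 17 reads, or 36.05 RPM. Pim2 was at 24.3 RPM in the 8 somite cells with Pou5f1 reads and 14.9 in the rest, and at 16.2 and 6.45 RPM at 10 somites. On plate D the order was opposite, 8.99 RPM in 5 cells and 36.8 in the other 10, so the late cells gave no single direction.

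Within 1 stage and plate number, the pooled level of Pim2 was higher in cells with Pou5f1 reads than in those without on 6 of 7 sets of 4 and 6 somites. It was lower on 1. At 4 somites on plate F, 87 cells with a Pou5f1 read had Pim2 at 541.8 RPM and 41 cells without had 403.9, a log2 ratio of 0.42 (0.34 to 0.51). On plate D, the other set of that stage, 28 cells with had 144.3 RPM and 64 without had 201.6, a ratio of −0.48 (−0.65 to −0.32). The sign thus differed between the 2 sets of 1 stage. The median cell held more Pim2 with Pou5f1 than without on plate D, on plate F at both stages and on plate E. On plates A, B and H, all of 6 somites, the medians with and without were equal, at 20, 20 and 0 RPM. The share of cells with a Pim2 read was lower with Pou5f1 on plates A and H and higher on the other sets of 4 and 6 somites. At 6 somites the levels were 488.6 and 268.4 RPM on plate F (0.86, 0.79 to 0.94), 180 and 95.4 on plate E (0.92, 0.82 to 1.01), and 93.3 and 43.4 on plate B (1.11, 0.82 to 1.39). They were 42.9 and 35.8 RPM on plate H (0.27, −0.01 to 0.53) and 39 and 29.1 on plate A, with 10 and 11 cells (0.42, −0.29 to 1.14). The intervals of the last 2 included 0. All of these intervals count pooled reads and leave out the spread between cells, so they are no test. On plate H the sign was opposite under 4 of 11 alternatives, down to −1.54, and on plate A under 1 of 10, at −2.84. Among genes with at least 50 RPM in both groups of cells, 2 of 3882 other genes on plate F and 1 of 3858 on plate E at 6 somites had a ratio as high as that of Pim2. At 4 somites it was 3.98% of 3819 genes on plate F and 95.8% of 3749 on plate D. These ranks are given for scale only, since this link was among the values that chose the genes. No rank is given for plates A, B and H.

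Across cells the relation was weak. Spearman's rho of thinned reads was 0.17 on plate F and 0.02 on plate D at 4 somites, and 0.30 (plate F), 0.22 (plate E), 0.20 (plate B), −0.01 (plate H) and −0.05 (plate A) at 6 somites, over 21 cells on plate A and at least 71 on each of the others. The cells of a set share a plate and a stage, and these values carry no test. Compared within single well columns, the ratio fell to 0.29 at 4 and 0.53 at 6 somites on plate F and was 0.89 on plate E. On plate E it was 0.92 in columns 13 to 24 but 0.05 in columns 1 to 12. Markers of other tissues moved with this split. The summed level of 10 endothelial markers was lower in cells with Pou5f1 reads on 6 of the 7 sets, at 17.4 to 33.6 RPM against 69 to 439.5, and on plate A it was 23 with and 18.2 without. The sum of 7 cardiac markers was lower with Pou5f1 on 4 sets and higher on plates A, B and H, by less than 2 RPM, and that of surface ectoderm markers was lower on 5 and higher on plates A and B. On plate F at 4 somites the endothelial sum was 18.2 RPM with Pou5f1 and 391.2 without, the cardiac sum 6.09 and 49.02, and Cdh5, Pecam1, Tek, Tie1 and Emcn were at 0 in the cells with Pou5f1. At 6 somites on the same plate number the endothelial sum was 17.4 and 192.5 RPM and the cardiac sum 3.29 and 67. With all cells left out in which at least 50% of the markers of 1 other tissue were read, the Pim2 ratio was 0.31 at 4 and 0.80 at 6 somites on plate F. Germ cells also express Pou5f1 and Nanog, and 6 of 12 germ cell markers reached 5 RPM at 4 or 10 somites. These were Alpl (38.1 RPM at 4 somites), Ifitm1 (27.5), Tfap2c (20.3), Kit (17.6), Ifitm3 (11.6) and Prdm1 (5.28). The other 6, Dppa3, Prdm14, Nanos3, Dazl, Dnd1 and Ddx4, lay below 5 RPM at both stages, and Dppa3, Prdm14 and Nanos3 at no more than 0.444, 0.0899 and 0.108 RPM in any set of 4 and 6 somites. The sum of all 12 was higher with Pou5f1 reads on plate F at 4 somites (125.3 against 113.4 RPM) and on plates A (130 against 91.8) and B (154.8 against 111.6), and lower on the other 4 sets, at 111.1 to 170.1 RPM with and 150.8 to 182.9 without. The part of these markers in the ratios of Pim2 was not tested.

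The other members separated in the same comparison, with intervals that again leave out the spread between cells. Socs2 had ratios from 0.09 to 0.80 on 6 of the 7 sets, with an interval that included 0 on plate H, and was at −0.00 on plate D. Pim3 lay between −0.19 and 0.11 on all 7 with every interval including 0, although it was at −0.44 (−0.64 to −0.24) in well columns 7 to 12 of plate F at 6 somites. Nanog was at 0.61 on plate F at 4 somites, at −0.82 on plate D, and at 0.67 and 0.84 on plate F and plate E at 6 somites. Nanog's interval included 0 on plates B (−0.95, −4.42 to 0.99), D (−0.82, −1.82 to 0.002) and H (0.83, −1.39 to 2.47). On plate A it had no reads. Socs3 was at −0.73 (−1.43 to −0.01) and −1.86 (−3.22 to −0.84) on plate F at 4 and 6 somites, with intervals that included 0 on the other 5 sets. Pim1 was at −4.14 on plate F at 4 somites, from 1 and 12 reads, and had 0 and 45 reads with and without Pou5f1 on plate H, while its intervals included 0 on the other 5 sets. Sox2, the partner of Pou5f1 on DNA, had ratios from 0.13 to 0.93 on all 7 sets, with intervals that included 0 on plates A, B and D. The summed level of 13 neuroepithelium markers, Sox2 among them, was also higher with Pou5f1 reads on all 7 sets. It was at 509.5 to 743.9 RPM with and 357.3 to 704.1 without. The sum of 12 neural crest markers was higher with Pou5f1 on plates D and H and lower on the other sets. The part of cell type in these ratios was not tested.

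**Figure D3:**
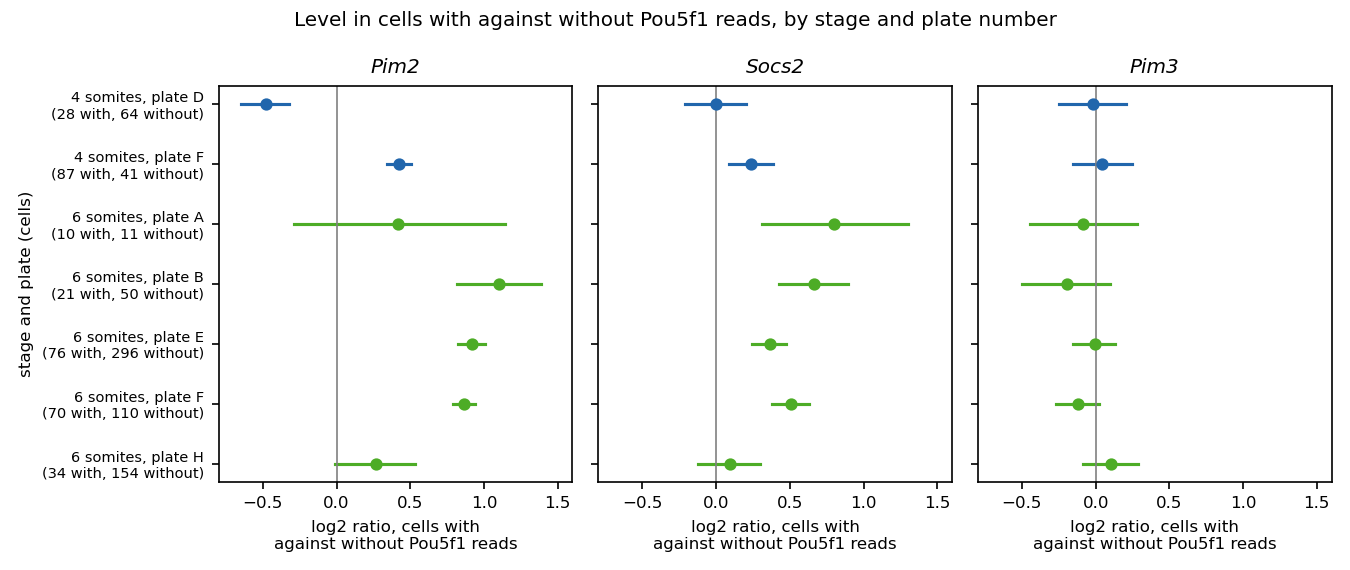
Log2 ratio of the level in cells with against without a Pou5f1 read, by stage and plate number, for Pim2, Socs2 and Pim3, with 95% counting intervals as bars. Pim2 lies right of 0 on 6 sets and left of it on 1, and Pim3 lies around 0.

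Pim2 was lower in cells with Sox10 reads, a split added after the data were seen. In each of the 8 blocks of well columns with at least 10 cells on either side, Pim2 was lower with a Sox10 read than without. On plate E at 6 somites it was at 13.2 RPM in cells with Sox10 and 86.1 in those without in columns 1 to 12, a log2 ratio of −2.70 (−3.03 to −2.40), and at 48.4 and 189.9 RPM in columns 13 to 24, a ratio of −1.97. On plate F at 6 somites, in the male block, it was at 37.5 RPM in 16 cells and 228.8 in 78, a ratio of −2.60. The 4 somite block on plate D gave 109.05 and 206.3 RPM, a ratio of −0.92. At 8 and 10 somites Pim2 was at 13.99 and 22.2 RPM on plate B and at 5.05 and 13.4 on plate C, ratios of −0.67 and −1.41. Of the other genes with at least 50 RPM in either group of cells, 13 of 4353 and 16 of 4559 on plate E and 10 of 4614 on plate F had a ratio as low as that of Pim2. In the other 5 blocks the share of such genes was 2.86% at 4 somites (plate D), 1.29% (plate B) and 1.11% (plate H) at 6, 5.80% at 8 (plate B) and 2.86% at 10 (plate C). At 8 and 10 somites Pim2 itself did not reach 50 RPM, at no more than 22.2 and 13.4 RPM. There it was ranked against genes of higher level and smaller counting error. Socs2 was also lower with Sox10 in all 8 blocks, from −0.31 to −1.71, and Pim3 was at −0.44 at 4 somites, −0.12 to −0.01 in the 5 blocks of 6, 0.50 at 8 and 0.10 at 10. Pou5f1 was lower in 7 of the blocks and at 0.40 on plate H. On plate B at 10 somites, where 7 cells had no Sox10 read, Pim2 was at 10.6 RPM with Sox10 and 7.14 without, from 5 reads.

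**Figure D4:**
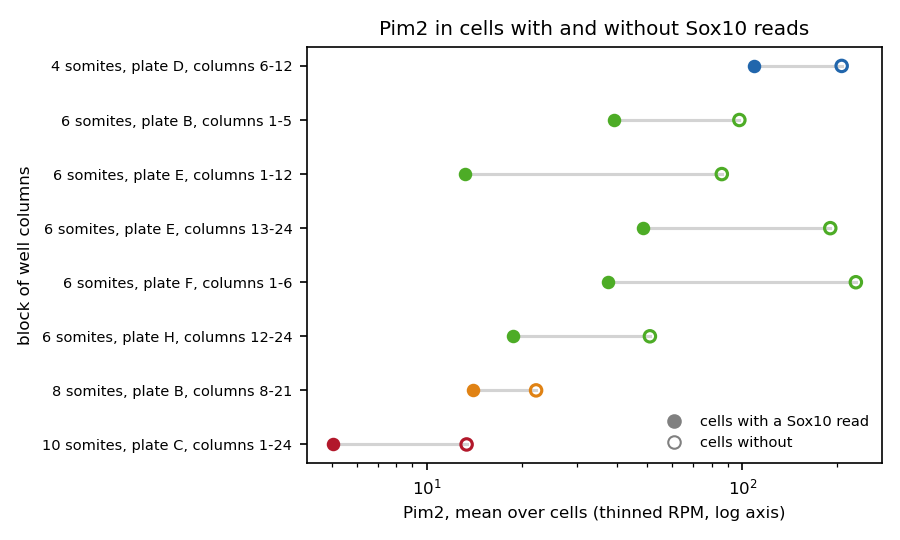
Mean Pim2 level (thinned RPM, log axis) in cells with a Sox10 read (filled) and without (open) in 8 blocks of well columns, coloured by stage as before. Every filled point lies left of its open point, from 5.05 against 13.4 RPM at 10 somites to 109.05 against 206.3 RPM at 4.

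The genes whose levels over the 12 sets were most like Pou5f1 by Pearson's r of log2(RPM + 1) were Mpv17 (0.98), Foxb1 (0.97), Mov10 (0.96), Fam57b, Hdac1 and Rbpms2 (0.95 each), out of genes at 5 RPM or more in some set. Those most like Pim2 were Ccdc92 and Pmaip1 (0.98 each), Mov10 and Fgfr1 (0.97 each), Hdac1 (0.97) and Ldhb (0.96), so Mov10 and Hdac1 stood in both lists. Across the cells of 4 somites on plate F the genes most like Pim2 were Bex1 (r = 0.66), the DNA methyltransferase gene Dnmt3b (0.63), Eras (0.53), the glucose transporter gene Slc2a3 (0.51), the tubulin gene Tubb3 (0.51) and Sall4 (0.49), a transcription factor gene of the pluripotency network. Pou5f1 and Pim2 had r = 0.23, below these, among 8643 genes compared. The genes most like Pou5f1 across these cells reached 0.32 to 0.35 (Ezr, Rpap3, Nsa2, Dcaf10, Mrgbp and Fem1a). Eras, a Ras gene known from embryonic stem cells, lies at chrX:7924276-7928607, 40843 bases downstream of Pim2, and Bex1 is also on the X chromosome, as 3.54% of the genes compared were. Slc2a3 lies 13175 bases downstream of Nanog on chromosome 6.

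The rest of the pathway was described by lists of genes, counted at 5 RPM or more and read against the 6.65% and 6.17% of all genes that were 2-fold lower and higher at 10 than at 4 somites. Of 22 other genes of the pluripotency network 7 were measured, with 3 lower, 1 higher and a median log2 ratio of −0.80, against 0.01 for all genes. Klf2 (−1.85, but −0.31 and 0.17 along the shared plate numbers), Sall4 (−1.44) and Sox2 (−1.25) were lower and Tbx3 higher (6.04). Sox2 was at 49.5 RPM at 4 somites and 20.8 at 10, and the others not measured, among them Klf4, Esrrb, Zfp42, Dppa3 and Utf1, stayed below 5 RPM at both stages. Of 14 genes of the primed epiblast 9 were measured, with 7 lower, none higher and a median of −1.78. Fgf5 went from 13.3 to 0.103 RPM (−6.97, but 2.98 by way of 8 somites), Sox3 from 8.25 to 1.74 (−2.24) and Otx2 from 88.5 to 23.3 (−1.92). Fgf5 had no reads at 8 somites on plate B, a set that this route passes through. The 2.98 therefore rests on the reads added before each ratio and is no measured rise. Otx2, Sox3 and Sox2 are also among the 13 neuroepithelium markers listed here. Of these 12 were measured, with 9 lower, 1 higher and a median of −2.01. All 12 neural crest markers were measured, with 2 lower, 10 higher and a median of 3.40. The part of cell type in the lower levels of the 2 lists above was not tested.

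Of the cytokine pathway that Pim and Socs genes report on, the ligands were hardly read. All 8 genes of the IL6 family of ligands, Lif and Il6 among them, were below 5 RPM at both stages. Of 19 receptor genes 10 were measured, with 2 lower, 2 higher and a median of 0.50. Epor, the erythropoietin receptor gene, went from 5.03 to 0.946 RPM (−2.41) and Cntfr from 32.04 to 13.7 (−1.23), while Il11ra1 was higher at 39.4 than at 14.3 RPM (1.47, but 0.11 along the shared plate numbers) and Ifngr1 at 16.9 than at 7.45 (1.18, but 0.41 along the shared plate numbers). Of 11 JAK and STAT genes 8 were measured, with none lower, 3 higher and a median of 0.94. Jak3 went from 0.773 to 13.4 RPM (4.10), Jak2 from 6.40 to 20.1 (1.65, but 0.72 by way of 8 somites) and Stat3 from 5.61 to 11.7 (1.06, but 0.72 along the shared plate numbers), with Jak1 at 37.8 and 74.6 RPM (0.98). Along both routes Jak3 alone of these was more than 2-fold higher, at 2.33 and 8.40. Jak3 had 0 reads at 4 somites on plate D, so the size of the 8.40 rests on the 0.5 added reads.

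Of 14 other SOCS and JAK-STAT inhibitor genes 12 were measured, with 1 lower and none higher, a median of −0.14. Ptpn6, a phosphatase gene, went from 28.5 to 7.20 RPM (−1.99), and Pias3 (−0.68), Socs7 (0.56) and Ptpn1 (0.53) were the next in size. Of 15 genes listed as STAT3 targets 10 were measured, with 2 lower, Fos (−2.32, but 1.89 along the shared plate numbers) and Gbx2 (−1.96), none higher and a median of −0.12. Myc was at 83.7 and 162.8 RPM (0.96) and Gadd45g at 7.19 and 12.9 (0.85). Of 14 genes for proteins phosphorylated by PIM kinases 11 were measured, with 1 higher, none lower and a median of 0.24. Foxo1, a transcription factor gene, went from 15.3 to 105.2 RPM (2.78), and Map3k5 (−0.67), Cbx3 (−0.49) and Eif4ebp1 (0.48) followed. In none of these 3 lists were more than 2 genes past 2-fold. Along the shared plate numbers Socs7 (−0.52) and Cbx3 (1.21) had the opposite sign, as did Pias3 (0.20), Ptpn1 (−0.13) and Gadd45g (−1.21) by way of 8 somites.

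**Figure D5:**
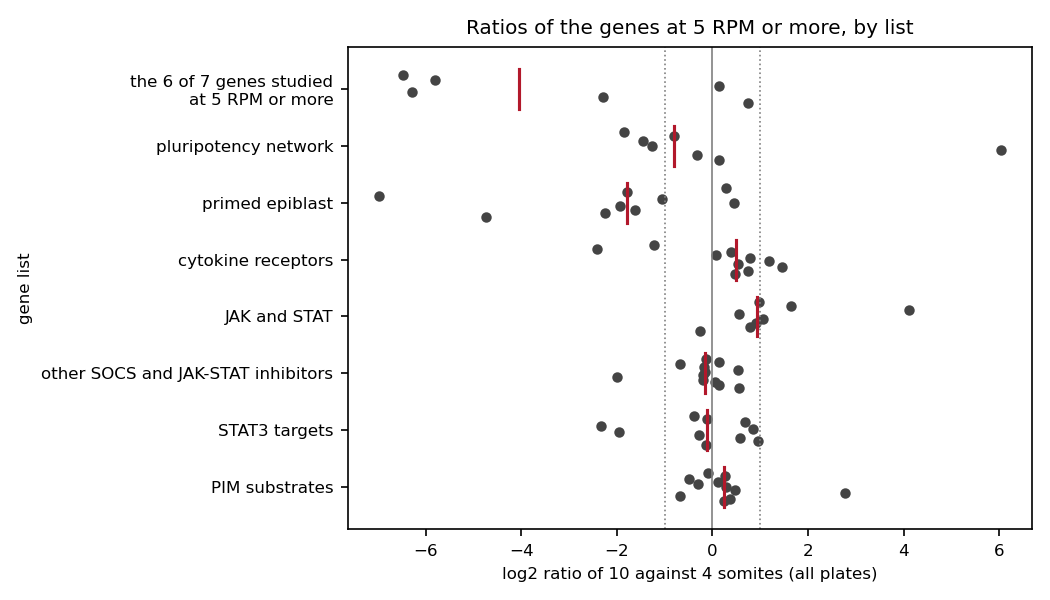
Log2 ratio of 10 against 4 somites over all plates for each gene at 5 RPM or more, 1 row of points per list, with the list median as a red bar and 2-fold as dotted lines. The primed epiblast genes lie mostly left, with a median of −1.78, and the JAK and STAT genes mostly right, with a median of 0.94.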

How the data were processed

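Smart-Seq2 cells of 4 stages were read from 1 table, in which the authors deposited raw counts, whole reads for each gene in each cell, made without normalization per the labels and the values. From the submitters' processing notes come bcl2fastq 2.18, STAR 2.6 and the mm10 build, and for the counting tool, annotation and strand setting: not given in the sources used here. Spike-ins (92 rows) and Rn45s were left out of library sizes. Reads were summed over kept cells of a stage, set or block, and log2 ratios took 0.5 added reads, with exact Poisson or Clopper-Pearson 95% intervals (Python 3.11.15, SciPy 1.17.1) and a floor of 3 reads. No test was run, as no embryo is named. Doublets were not called. Positions are those of GENCODE vM21. The genes, lists and comparisons were chosen with earlier results of these data known. Named genes were the 7 members, up to 4 genes per list with the largest ratios of 10 against 4 somites, and the 6 most alike by Pearson's r. A gene that this rule names is not reported here. Alternatives were other scalings (edgeR 4.0.16 and DESeq2 1.42.0 for size factors alone), filters, plates, depths and cells. The steps were checked on simulated data. The blocks of well columns and the split by Sox10 reads were added after seeing the data.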

Additional observations from a re-analysis of the deposited data

Results flagged for a closer look

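The cells of 4 somites on 2 plates gave opposite signs for Pim2 in cells with against without Pou5f1 reads, with a log2 ratio of 0.42 on plate F and −0.48 on plate D. The difference was not tested. The cells on plate F had Xist at 70.3 RPM, Ddx3y at 18.3 and Fos at 405.2, and those on plate D had Xist at 137.8 RPM, Ddx3y at 0.052 and Fos at 9.95, and the part of these in the difference was not tested.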

How the results depend on the processing

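The ratio of 10 against 4 somites kept its sign under 16 of 16 alternatives for each of Pou5f1, Nanog, Pim2, Socs2 and Socs3. For Pou5f1 it was −3.89 within shared plates, −1.57 by way of 8 somites, −7.01 without cells of other types, and −6.78 to −4.66 when 1 plate was left out. For Pim2 these were −2.97, −3.14, −5.98 and −6.17 to −4.67, with −5.65 on all reads including Rn45s, −5.61 as the mean over cells and −5.62 with equal weight per plate. Genes at least 2-fold lower were 11.8% of 24919 without a minimum RPM and 3.96% of 8804 on all reads, against 6.65% of 10205, and those higher were 12.6% without a minimum, against 6.17%. The cell-by-cell ratio of Pim2 on plate F at 4 somites was 0.63 at 200000 reads per cell, 0.25 for 3 or more Pou5f1 reads, 0.60 as the mean over cells, 0.53 on all reads, 0.31 without other cell types and 0.29 by well column. On plate F at 6 somites it was 0.95 at 50000 reads, 1.13 at 200000, 1.15 without thinning, 1.05 for 3 or more Pou5f1 reads, 0.99 as the mean over cells, 1.21 on all reads, 0.68 without the 3 cells highest in Pim2, 0.77 in cells without Sox10 reads, 0.53 by well column, 0.47 in columns 1 to 6 and 0.64 in columns 7 to 12. At 50000 reads it turned to 0.031 on plate D at 4 somites and −0.62 on plate B at 6. On plate H it turned to −1.54 at 50000 reads, −0.35 at 200000, −0.63 for 3 or more Pou5f1 reads and −0.084 without other cell types, and on plate A to −2.84 for 3 or more Pou5f1 reads. Other signs turned for small ratios. Within shared plates Pim1 was at −0.35 (10 against 4) and Pou5f1 at 0.91 (10 against 8). By way of 8 somites Pim1 was at −1.73 and Pim3 at −0.12. With equal weight per plate Pim3 was at −0.0087 (10 against 4) and −0.077 (8 against 6) and Pim1 at 0.82 (10 against 8). Pim3 was at −0.060 on all reads (6 against 4), and Pim2 at 0.068 for columns 7 to 12 (6 against 4). With 1 plate left out Pim3 ran from −0.011 to 0.17 (10 against 4), −0.036 to 0.20 (6 against 4) and −0.065 to 0.18 (8 against 6), Pim1 from −0.51 to 1.55 (8 against 6) and −0.43 to 1.33 (10 against 8), Pou5f1 from −2.67 to 0.39 and Socs3 from −0.13 to 0.93 (both 10 against 8). The causes were not tested. No paired analysis was possible because the replicate numbers only name cells in accession order and no test was run. Pou5f1 had 58 reads at 8 and at 10 somites, and Nanog 15 and 24.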
